A study of Homo sapiens with 8 samples.

Results

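The clustered histone genes encode the histones that a cell makes in bulk when it copies its DNA. The members were the 71 rows, of 20030 in each expression file, whose older symbol begins with HIST1H, HIST2H, HIST3H or HIST4H. Of these, 55 belong to the *HIST1* cluster on chromosome 6, 12 to *HIST2* and 3 to *HIST3* on chromosome 1, and 1 to *HIST4* on chromosome 12. By protein, 6 encode the linker histone H1, 17 encode H2A, 18 encode H2B, 15 encode H3 and 15 encode H4.

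The RNA came from cultures of HCT-116, an established line from a human colorectal carcinoma, that had been transiently transfected with siRNA. The 8 libraries comprise 2 controls given a control siRNA (siNC), 3 in which *HHEX* was targeted (siHHEX), 2 in which *YAP1* was targeted together with *WWTR1*, the gene of TAZ (siYAP/TAZ), and 1 in which all of *TEAD1* to *TEAD4* were targeted (siTEAD1/2/3/4). Per the methods of the study, each numbered siHHEX library had its own siRNA and each siYAP/TAZ library its own pair, so that the spread within these groups holds differences between siRNAs. The study sought target genes regulated jointly by HHEX, a homeodomain transcription factor, and by YAP/TEAD. YAP and TAZ are coactivators, and the TEAD factors are their DNA-binding partners. Levels are FPKM, that is fragments divided by transcript length and by library size. Levels of different genes can thus be compared per length, if their RNA was captured alike. No read counts enter the analysis and the depth of the libraries is unknown. Over all rows the values summed to 345773 to 348610 FPKM in siNC, 365242 to 383423 in siHHEX, 331663 to 336954 in siYAP/TAZ and 343785 in siTEAD1/2/3/4.

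The target genes and the cell type were checked first. *HHEX* was at 8.60 and 9.06 FPKM in siNC and at 3.25, 3.54 and 1.85 in siHHEX. *WWTR1* was at 6.80 and 6.72 in siNC and at 2.64 and 2.58 in siYAP/TAZ, where *YAP1* was at 6.90 and 8.39 against 20.2 and 19.7. *TEAD4* was at 5.56 in siTEAD1/2/3/4, against 20.3 and 21.3 in siNC, and *TEAD1* at 9.02 against 18.3 and 19.0. *TEAD2* was at 2.73 against 4.10 and 3.47, while *TEAD3* was at 9.08 against 7.36 and 6.99, so that 1 of its 4 targets was not lower in that library. The knockdowns also moved each other's targets in the limma fit described below. In siHHEX *YAP1* fell by 1.07 on the log2 scale (adjusted p = 0.0429) and *TEAD1* by 1.25 (0.00641), and *TEAD2* rose by 0.78 (0.00709), all from limma. In siHHEX 2 *YAP1* was at 17.4 FPKM, near siNC, and at 5.77 and 6.93 in the other siHHEX libraries. In the fit corrected for GC content and length, described below, *YAP1* (-0.77, adjusted p = 0.172) and *TEAD2* (0.45, 0.099) no longer passed in siHHEX, while *TEAD1* (-0.93, 0.0205) and *TEAD4* (-0.52, 0.0381) did. In siYAP/TAZ *TEAD4* fell by 0.63 (adjusted p = 0.0250 from limma). Of 5 epithelial markers, 2 fell in siHHEX (*EPCAM* by 0.38 and *KRT18* by 0.29 on the log2 scale) and 2 in siYAP/TAZ (*KRT18* by 1.22 and *KRT8* by 0.88), in the limma fit described below. In the corrected fit *EPCAM* no longer passed in siHHEX (-0.27, adjusted p = 0.105) and *KRT8* did (-0.35, 0.0477). All 5, *EPCAM*, *KRT8*, *KRT18*, *KRT19* and *CDH1*, were at 8.16 FPKM or more in every library. Of the markers of leukocytes, endothelium and fibroblasts, *PTPRC*, *CD3E*, *PECAM1*, *CDH5*, *COL3A1* and *PDGFRB* stayed at or under 0.283 FPKM, and *COL1A1* lay between 0.647 and 2.04. In siHHEX 3 and siYAP/TAZ 2 *COL3A1* was at 0.235 and 0.283, and at or under 0.0407 elsewhere. *PTPRC* was at 0.101 and 0.0786 there, and at or under 0.0120 elsewhere. *PDGFRB* and *CDH5* were highest in other libraries. The summed histone level, given below, was also highest in siHHEX 3 and siYAP/TAZ 2.

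Pairs of H2A and H2B with pairs of H3 and H4 make the core of the nucleosome around which DNA is wound, and H1 binds the linker DNA between cores. Clustered histone genes lack introns and are transcribed mainly in S phase, from compact promoters. Their mRNAs end, without a poly(A) tail, just after a conserved stem-loop that the stem-loop binding protein SLBP holds, and some of the genes also give longer, polyadenylated transcripts that read past it. The sources used here do not say how RNA was selected for the libraries, so that the share of tailless histone mRNA that was captured is unknown. In these bulk libraries, a change in the share of cells in S phase and a change in histone RNA per cell cannot be told apart.

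Of the 71 genes, 66 were matched to GENCODE release 44 on GRCh38, and HIST1H2BC, HIST1H2BE, HIST1H2BF, HIST1H2BG and HIST1H2BI were not. The canonical transcript of all 66 has a single exon, of 386 to 2224 bases, and in all 66 a stem-loop was found 22 to 67 bases after the stop codon, in the 3′ UTR or just beyond the annotated end. The stem-loops below are those of the matched genes that passed the test in a comparison, and of *HIST1H2BK*, which ranks next to *HIST1H1C* in level. They are read from GRCh38 5′ to 3′ on the strand of the gene, with the 16 bases of the stem and loop in capitals.
HIST1H1C: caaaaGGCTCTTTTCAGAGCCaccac
HIST1H2AC: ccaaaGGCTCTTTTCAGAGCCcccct
HIST3H2A: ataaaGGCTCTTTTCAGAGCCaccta
HIST2H2BE: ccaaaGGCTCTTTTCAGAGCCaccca
HIST1H2BD: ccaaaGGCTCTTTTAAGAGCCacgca
HIST1H2BK: ccaaaGGCTCTTTTAAGAGCCactta
HIST1H3E: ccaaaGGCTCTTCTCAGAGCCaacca
HIST1H4D: ccaacGGCCCTTTTCAGGGCCaccta

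On chromosome 6 these lie at chr6:26055739-26055764 (*HIST1H1C*, minus strand), chr6:26124664-26124689 (*HIST1H2AC*, plus), chr6:26158582-26158607 (*HIST1H2BD*, plus) and chr6:27146361-27146386 (*HIST1H2BK*, minus). Those of *HIST1H3E* and *HIST1H4D* lie at chr6:26225591-26225616 (plus) and chr6:26188710-26188735 (minus). On chromosome 1, *HIST2H2BE* has its stem-loop at chr1:149886183-149886208 (minus) and *HIST3H2A* at chr1:228457364-228457389 (minus). The first form above, with the loop bases of *HIST1H1C*, was read in 39 of the 66 genes, and the form of *HIST1H2BD* and *HIST1H2BK* in 8. The GC-richer stem of *HIST1H4D* was read in all 15 matched H4 genes and in no other matched gene, in 10 of them with the same loop. The members also differ in the annotation after this element: 16 of the 66 have an annotated transcript that runs more than 100 bases past the stem-loop.

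The measured level of clustered histone RNA was low in every library. Summed over the 71 genes it came to 50.7 and 49.8 FPKM in siNC, 91.5, 106 and 135 in siHHEX, 96.4 and 126 in siYAP/TAZ, and 58.3 in siTEAD1/2/3/4. All 5 siHHEX and siYAP/TAZ libraries lay above both siNC libraries. The group means were 50.3 ± 0.623 (SD, n = 2), 111 ± 22.3 (SD, n = 3) and 111 ± 21.1 (SD, n = 2), which is a ratio to siNC of 2.21 in siHHEX and 2.22 in siYAP/TAZ. As a share of all FPKM the histone genes made up 0.0145% and 0.0144% in siNC, 0.0245%, 0.0290% and 0.0353% in siHHEX, 0.0291% and 0.0375% in siYAP/TAZ, and 0.0170% in siTEAD1/2/3/4. For comparison, 12 genes of replacement histones, variants that are mostly made throughout the cell cycle from polyadenylated mRNAs, summed to 1773 ± 49.3 FPKM (SD, n = 2) in siNC. As the captured share of tailless histone mRNA is unknown, these sums do not compare the abundance of both kinds of mRNA in the cells.

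**Figure D1:**
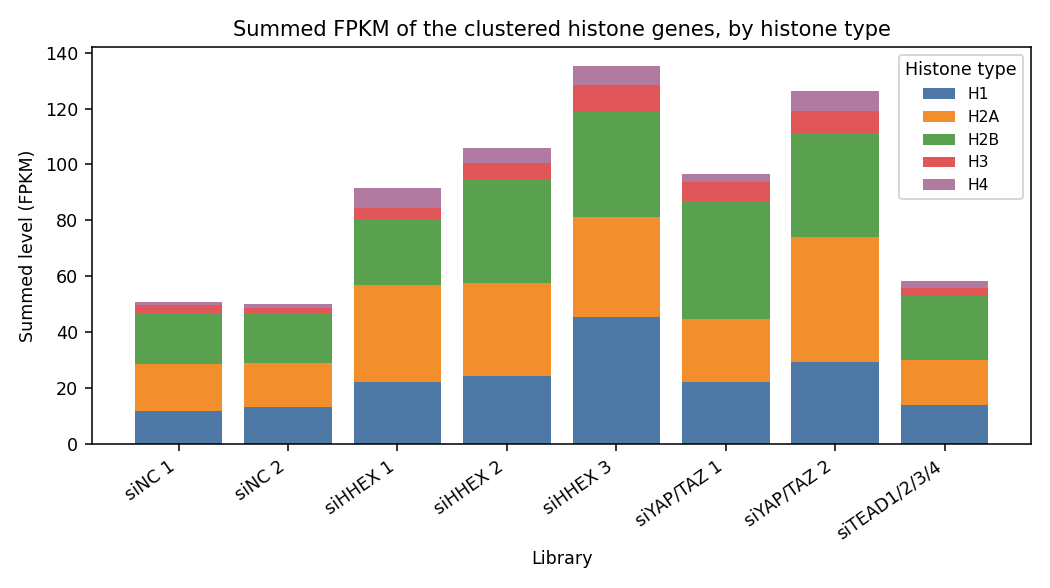
Summed level of the 71 clustered histone genes (FPKM, vertical axis) in each of the 8 libraries (horizontal axis), with each bar divided by histone type. The siNC bars reach 50.7 and 49.8, the siTEAD1/2/3/4 bar 58.3, and the other 5 bars 91.5 to 135.

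The mean summed level of each histone type was higher in siHHEX and siYAP/TAZ than in siNC, by different ratios. The sum for H1, nearly all of it *HIST1H1C*, was 2.49 times that of siNC in siHHEX and 2.08 times in siYAP/TAZ. For H2A the ratios were 2.11 and 2.05, and for H2B 1.82 and 2.21. The sums for H3 and H4 were small, 2.30 ± 0.693 and 1.22 ± 0.0436 FPKM in siNC (SD, n = 2), and their ratios larger, 2.86 and 3.16 for H3 and 5.20 and 4.21 for H4. By cluster, the ratios were 2.09 and 2.23 for *HIST1*, 2.21 and 1.80 for *HIST2*, and 2.88 and 2.32 for *HIST3*. The *HIST2* sum overlapped siNC in siHHEX 2, at 2.93 FPKM against 3.28 and 3.91. These ratios and those of the whole sum were not tested, and the sums are not corrected for GC content and length. In the corrected fit described below, 0 of 22 histone genes were higher in siHHEX and 5 in siYAP/TAZ. Of all genes in that fit 3.15% and 9.23% were. A sum is carried by few genes, since *HIST1H1C*, *HIST1H2BK* and *HIST3H2A* made up 53.5% to 69.1% of it in each library.

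Most members were near the floor of the measurement. In siNC the median over the 71 genes of the mean level was 0.0933 FPKM. Of the 71 genes 11 were listed at 0 in every library, among them the testis genes *HIST1H1T*, *HIST1H2AA*, *HIST1H2BA* and *HIST3H3*. The other 60 were above 0 in at least 1 library, and the number above 0 ran from 31 in siHHEX 2 to 48 in siHHEX 3. Testing was restricted to genes that reached 1 FPKM in 2 or more of the 8 libraries, whatever their group. This kept 23 histone genes, and of the 48 left out 37 were above 0 somewhere, with a highest single value of 2.14 FPKM. Only 7 of the 23 reached 1 FPKM in both siNC libraries. The other 16 passed through at least 1 other group, so that counts and medians over the 23 genes are descriptions and not evidence of a direction for the 71.

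By mean over the 8 libraries, 3 genes stood far above the rest, but not in every library. In siTEAD1/2/3/4 *HIST2H2AC* at 4.05 FPKM lay near *HIST3H2A* at 5.33. In siYAP/TAZ 2 *HIST1H2AC* at 14.4 lay near *HIST1H2BK* at 19.2. *HIST1H1C*, which encodes linker histone H1.2, was at 10.6 and 12.3 FPKM in siNC, 21.2, 23.5 and 44.2 in siHHEX, 21.4 and 28.7 in siYAP/TAZ and 12.8 in siTEAD1/2/3/4. *HIST1H2BK*, an H2B gene, was at 14.9 and 12.8, then 13.6, 29.2 and 29.0, then 29.7 and 19.2, and 13.4, in the same order. *HIST3H2A*, the H2A gene of the small *HIST3* cluster, was at 6.33 and 5.96, then 15.1, 20.4 and 18.1, then 9.65 and 19.7, and 5.33. For *HIST1H1C* and *HIST3H2A* every siHHEX and siYAP/TAZ library was above both siNC libraries, while siHHEX 1 kept *HIST1H2BK* within the siNC range. By mean over the 8 libraries the order was 21.8 FPKM for *HIST1H1C*, 20.2 for *HIST1H2BK* and 12.6 for *HIST3H2A*, and the first and the next did not differ beyond their spread over libraries.

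Below them came genes of 1 to 5 FPKM on average. *HIST1H2AC*, an H2A gene, was at 2.42 and 2.44 in siNC, 2.66, 2.78 and 4.48 in siHHEX, 6.04 and 14.4 in siYAP/TAZ and 1.71 in siTEAD1/2/3/4. *HIST1H2BD*, an H2B gene, was at 0.680 and 0.593, then 2.12, 1.85 and 3.05, then 6.83 and 8.78, and 0.833. In both genes the siYAP/TAZ libraries were the highest, and for *HIST1H2BD* the 3 groups did not overlap. *HIST2H2AC*, of the *HIST2* cluster, was at 1.70 and 2.10, then 6.0, 1.94 and 6.56, then 2.79 and 2.44, and 4.05, so that siHHEX 2 lay with siNC. *HIST1H2BC*, another H2B gene, was at 1.07 and 0.902, then 0.936, 0.710 and 0.956, then 1.49 and 4.61, and 3.10. Its siHHEX libraries overlapped siNC, while siYAP/TAZ 2 and siTEAD1/2/3/4 were high.

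The last of the 10 most abundant varied as much within groups as between them. *HIST1H3H*, an H3 gene, was at 1.52 and 0.575 in siNC, 0.799, 1.30 and 3.20 in siHHEX, 2.09 and 2.50 in siYAP/TAZ and 0.930 in siTEAD1/2/3/4. *HIST1H2AM* was at 0.752 and 1.72, then 2.01, 2.02 and 0.957, then 1.74 and 1.41, and 1.32. *HIST1H2AG* was at 1.5 and 1.45, then 1.70, 1.93 and 1.03, then 0.705 and 1.73, and 0.623. The siNC and siHHEX ranges overlap for each of these 3 genes, and only *HIST1H3H* had both siYAP/TAZ libraries above siNC. From *HIST2H2AC* at 3.45 FPKM down to *HIST1H2AG* at 1.33, no neighbours in the order of mean level differ beyond their spread.

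**Figure D2:**
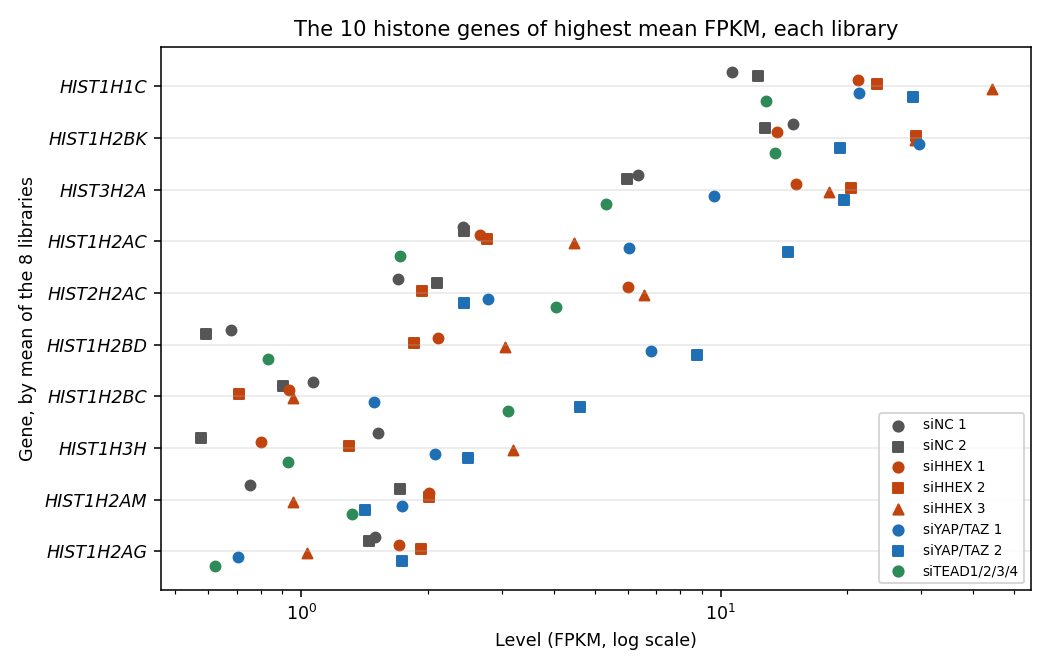
Level (FPKM, log scale, horizontal axis) of the 10 clustered histone genes of highest mean over the 8 libraries (vertical axis), 1 point per library, coloured by group and shaped by replicate number. *HIST1H2BD* lies at 0.593 and 0.680 in siNC and at 6.83 and 8.78 in siYAP/TAZ, whereas the points of *HIST1H2AM* and *HIST1H2AG* are mixed.

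Knockdown of *HHEX* was compared with siNC to ask which genes respond to its loss. Of the 23 tested histone genes 4 rose and 0 fell, by limma on log2(FPKM + 1) with Benjamini-Hochberg adjustment over all 10677 tested genes and an adjusted p under 0.05. That is 17.4% of the 23, against 16% of all tested genes that rose and 16.9% that fell, so that the share that rose was near the background. At an unadjusted p under 0.05, 7 were higher and 0 lower. The share of all tested genes at that threshold was not counted, here or for the other fits and lists. Nothing is read from such counts against the background. The median change of the 23 was 0.45 on the log2 scale, against -0.01 for all tested genes, and 19 of 23 were above 0, against 49.6% of all. By the criterion of the study, a fold change over 2 with an unadjusted p under 0.05, 4 histone genes were higher and 0 lower, where 0.702% and 0.927% of all tested genes were.

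The genes that rose in siHHEX belong to H1, H2A, H2B and H4. A log2 fold change here is on the log2(FPKM + 1) scale, which understates the change of genes near or under 1 FPKM. *HIST3H2A* rose by 1.39 (SE 0.247, adjusted p = 0.00729 from limma), with a mean of 17.9 ± 2.68 FPKM (SD, n = 3) against 6.15 ± 0.267 (SD, n = 2). *HIST1H1C* rose by 1.23 (SE 0.274, adjusted p = 0.0130 from limma), from 11.5 ± 1.15 to 29.7 ± 12.7 FPKM. *HIST1H2BD* rose by 1.01 (SE 0.173, adjusted p = 0.00669 from limma), from 0.637 ± 0.0617 to 2.34 ± 0.629 FPKM. The increase was seen in 3 of 3 siHHEX libraries for each.

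*HIST1H4D*, one of the many genes that encode the same H4 protein, was listed at 0 in siNC 1 and at 0.526 FPKM in siNC 2, at 1.37, 2.98 and 0.912 in siHHEX, at 0.238 and 0.484 in siYAP/TAZ and at 0 in siTEAD1/2/3/4. All siHHEX libraries were above all others, and the gene rose by 1.09 (SE 0.292, adjusted p = 0.0229 from limma). It passed the filter only through siHHEX. Of the genes that did not pass the test, *HIST1H2BO*, *HIST2H2AC* and *HIST1H2AH* were 0.92, 0.89 and 0.89 above siNC on the log2 scale (adjusted p = 0.0776, 0.0704 and 0.0851 from limma), and *HIST1H2BK* 0.68 (adjusted p = 0.111 from limma). *HIST1H2AH* too passed the filter only through siHHEX, and was listed at 0 in both siNC libraries and in siHHEX 3. *HIST1H2BO* was at 0.594, 3.29 and 0.587 FPKM in siHHEX, so that siHHEX 2 stood apart.

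The siHHEX calls were lost without either control library. Without siNC 1, and likewise without siNC 2, 0 of the 23 genes passed limma's adjusted test, where only 19 and 27 of all tested genes passed in either direction. With 1 control library left, the spread in these fits comes from the other groups. The log2 changes without siNC 1 and without siNC 2 were 1.43 and 1.35 for *HIST3H2A*, 1.13 and 1.32 for *HIST1H1C*, 1.05 and 0.98 for *HIST1H2BD*, and 0.78 and 1.39 for *HIST1H4D*. Without siHHEX 2 the count was 7, where 20.4% of all tested genes were higher, and without siHHEX 1 *HIST1H4D* was at 1.16 with an adjusted p of 0.0504 from limma.

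The tested histone genes are GC-rich and short, with a median GC content of 58.1% and length of 486 bases, against 49.1% and 3256 bases for all tested genes. After each library was corrected for its trend on these properties, 0 of 22 histone genes were called higher and 0 lower in siHHEX by limma, where 3.15% and 2.99% of all 10617 genes in that fit were. At an unadjusted p under 0.05, 3 were then higher and 4 lower, with no share of all genes counted at that threshold. The log2 fold change was then 0.70 for *HIST3H2A* (adjusted p = 0.13 from limma), 0.74 for *HIST1H1C* (0.096), 0.49 for *HIST1H2BD* (0.0579) and 0.51 for *HIST1H4D* (0.392). The median over the 22 genes was -0.04. *HIST1H2BC* had no matched transcript and was left out of this fit.

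Knockdown of *YAP1* and *WWTR1* was compared with siNC in the same fit. Of the 23 genes 5 rose and 0 fell, or 21.7%, where 6.15% of all tested genes rose and 2.13% fell. Among these 5, *HIST1H3E* and *HIST2H2BE* passed the filter only through siYAP/TAZ. Nothing is therefore read from this share against the background. At an unadjusted p under 0.05, 8 were higher and 0 lower, with no share of all tested genes counted at that threshold. The median change was 0.61 on the log2 scale, against 0.08 for all tested genes, and 20 of 23 were above 0, against 60.3% of all. By the criterion of the study 5 histone genes were higher and 0 lower, where 1.14% and 0.431% of all tested genes were, with *HIST1H1C* in and *HIST2H2BE* out.

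*HIST1H2BD* had the largest change of any tested histone gene, from 0.637 ± 0.0617 to 7.81 ± 1.38 FPKM (SD, n = 2 each), an increase of 2.42 on the log2 scale (SE 0.190, adjusted p = 0.000861 from limma). It was higher in 2 of 2 libraries. Without siNC 1 and without siNC 2, fits in which the control has no spread of its own, the increase was 2.46 and 2.38. *HIST1H2AC* rose by 1.60 (SE 0.326, adjusted p = 0.0228 from limma), with siYAP/TAZ 2 at more FPKM than any other library. *HIST3H2A* rose by 1.06 (SE 0.270, adjusted p = 0.0458 from limma), and its level in siYAP/TAZ 1 was the lower of the pair.

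The other genes that rose encode H3 and H2B and had low measured levels in siNC. *HIST1H3E* was at 0.198 and 0.202 FPKM in siNC, 0.531, 0.790 and 0.521 in siHHEX, 1.47 and 3.04 in siYAP/TAZ and 0.397 in siTEAD1/2/3/4. *HIST2H2BE* was at 0.257 and 0.482, then 0.888, 0.675 and 0.595, then 1.36 and 2.14, and 0.309. In both genes siNC, siHHEX and siYAP/TAZ followed each other without overlap. The log2 fold changes in siYAP/TAZ were 1.40 for *HIST1H3E* (SE 0.214, adjusted p = 0.00996 from limma) and 0.99 for *HIST2H2BE* (SE 0.175, adjusted p = 0.0156 from limma). Both genes passed the filter only through siYAP/TAZ.

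In siYAP/TAZ *HIST1H1C* was 1.05 above siNC on the log2 scale with an adjusted p of 0.0616 from limma, *HIST1H2BC* 0.91 (0.0910) and *HIST1H2BK* 0.75 (0.185). Without siNC 1, and likewise without siNC 2, 1 histone gene passed in siYAP/TAZ, where 0.103% and 0.0749% of all tested genes were higher. Without siYAP/TAZ 2, 2 passed, where 0.478% of all were higher, and *HIST1H2AC* was at 1.04 (adjusted p = 0.108), *HIST3H2A* at 0.58 (0.206) and *HIST2H2BE* at 0.79 (0.0913). Without siYAP/TAZ 1, 7 passed, where 6.05% of all were higher, with *HIST1H2BC* at 1.5 (0.00627). Once GC content and length were corrected for, 5 of 22 were higher and 0 lower by limma, where 9.23% and 3.29% of all genes in that fit were. At an unadjusted p under 0.05, 7 were then higher and 0 lower, again with no share of all genes counted. *HIST1H2BD* was then at 2.37 (adjusted p = 0.000209), *HIST1H2AC* at 1.55 (0.015), *HIST1H3E* at 1.33 (0.0127) and *HIST2H2BE* at 1.03 (0.011), all from limma. *HIST1H1C* passed at 1.03 (0.0368), and *HIST3H2A* did not at 0.97 (0.0544).

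**Figure D3:**
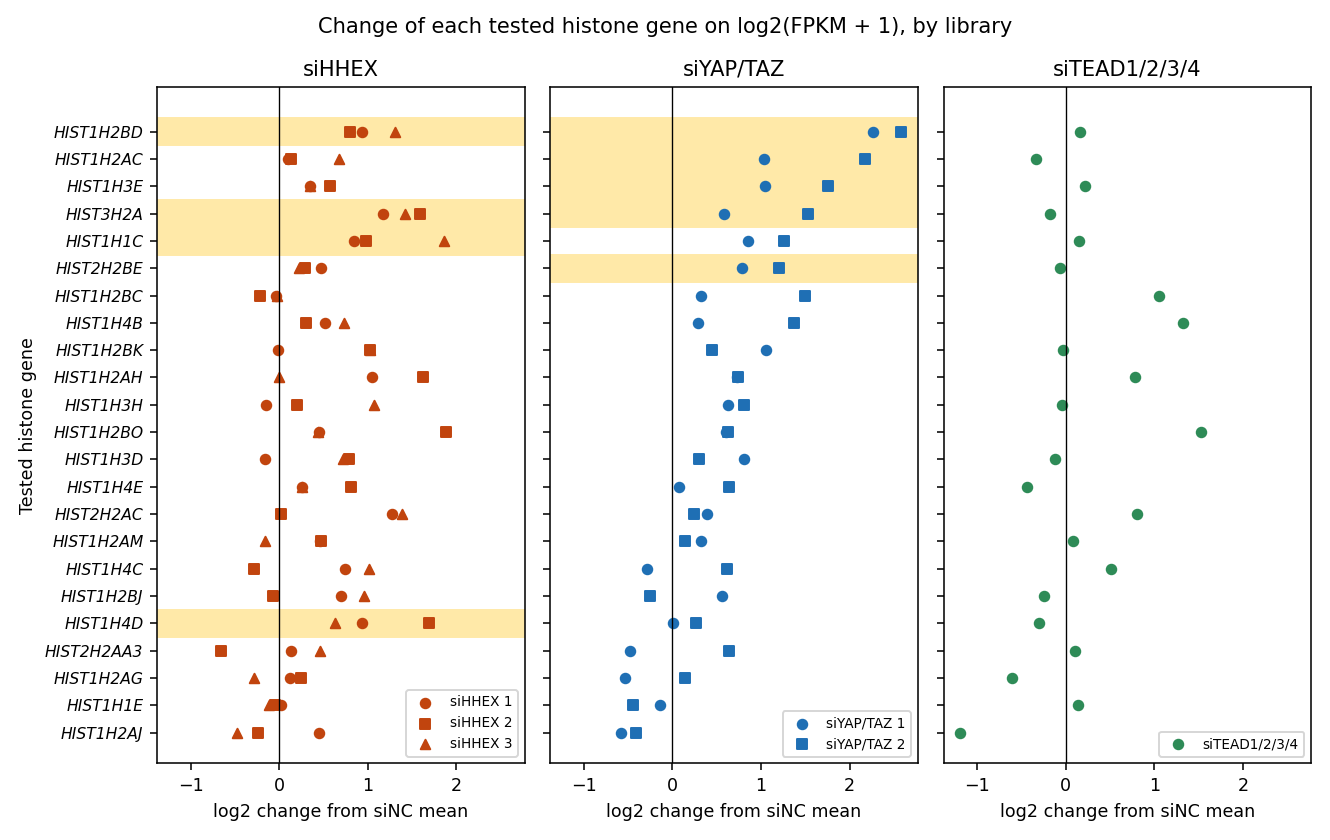
Change of each of the 23 tested histone genes from the siNC mean (log2(FPKM + 1), horizontal axis), 1 point per library, in siHHEX, siYAP/TAZ and siTEAD1/2/3/4, with shaded rows for an adjusted p under 0.05. In siYAP/TAZ the 5 shaded genes lie right of 0 in both libraries, and the siTEAD1/2/3/4 points of those genes lie between -0.34 and 0.22.

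**Figure D4:**
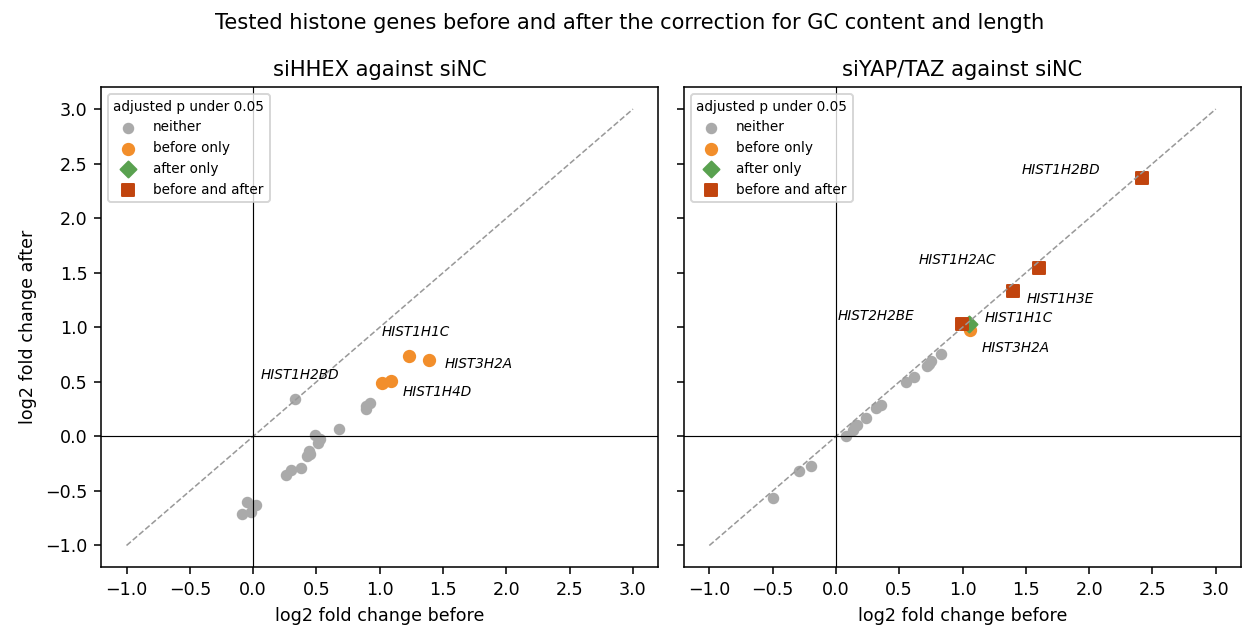
Log2 fold change of 22 tested histone genes against siNC before (horizontal axis) and after (vertical axis) correcting for GC content and transcript length, coloured by whether limma's adjusted p was under 0.05. In siHHEX all points except *HIST2H2BE* lie below the dashed line of equality and none passes afterwards, whereas in siYAP/TAZ they stay near it and 5 pass.

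The difference between siHHEX and siYAP/TAZ was tested directly. Of the 23 genes 5 were lower in siHHEX (21.7%, where 25.9% of all tested genes were) and 1 was higher (4.35%, where 13.5% were), so that neither share exceeded the background. *HIST1H2BD* was lower by 1.41 on the log2 scale (adjusted p = 0.00344), *HIST1H2AC* by 1.30 (0.0112), *HIST1H2BC* by 1.0 (0.0209), *HIST1H3E* by 0.97 (0.00751) and *HIST2H2BE* by 0.67 (0.0130), all from limma. *HIST1H4D* was higher in siHHEX by 0.95 (adjusted p = 0.0301 from limma). *HIST1H3E* and *HIST2H2BE* passed the filter only through siYAP/TAZ, and *HIST1H4D* only through siHHEX, so that the calls of these genes are not independent of the filter. The abundant genes *HIST1H1C* and *HIST3H2A* had differences of 0.17 (SE 0.274) and 0.34 (SE 0.247), with adjusted p of 0.624 and 0.289 from limma. By the criterion of the study 0 were higher in siHHEX and 3 lower, where 0.234% and 1.28% of all tested genes were. In the fit corrected for GC content and length 0 of 22 genes were higher in siHHEX and 4 lower, where 2.26% and 6.53% of all were, and *HIST1H4D* no longer passed (0.45, adjusted p = 0.414). Without siYAP/TAZ 2, 2 of 23 genes were lower, where 5.79% of all tested genes were, with *HIST1H2AC* at -0.74 (adjusted p = 0.0757), *HIST1H2BC* at -0.42 (0.102) and *HIST2H2BE* at -0.46 (0.097). *HIST1H2BC* was at -1.03 without siHHEX 1 (adjusted p = 0.0517), and *HIST1H4D* passed in none of the fits without siHHEX 1, siYAP/TAZ 1 or siYAP/TAZ 2 (adjusted p = 0.0570, 0.139 and 0.0945), all from limma.

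With siTEAD1/2/3/4 there was 1 library, so that no gene was tested and a change past 0.5 on the log2 scale was counted. Of the 23 genes 6 were past it upwards (26.1%, where 7.08% of all tested genes were) and 2 downwards (8.7%, where 3.22% were). The median change was 0.09, against 0.06 for all tested genes. *HIST1H2BO*, an H2B gene, had the largest change, 1.52, with 2.36 FPKM against 0.167 and 0.170 in siNC. *HIST1H4B* was at 1.5 FPKM and listed at 0 in both siNC libraries, a change of 1.32, and *HIST1H2BC* changed by 1.05. *HIST1H2BO* and *HIST1H4B* passed the filter only because this library was counted in it. Nothing is therefore read from the share of 26.1% against 7.08%. The lowest were *HIST1H2AJ*, listed at 0 against 1.60 and 1.0 FPKM (-1.19), *HIST1H2AG* (-0.61) and *HIST1H4E* (-0.44). The genes that rose in siHHEX or siYAP/TAZ were within 0.34 of siNC in this library, with *HIST1H2BD* at 0.16, *HIST1H3E* at 0.22, *HIST1H1C* at 0.15, *HIST2H2BE* at -0.06, *HIST3H2A* at -0.18, *HIST1H4D* at -0.30 and *HIST1H2AC* at -0.34. All these comparisons share the 2 siNC libraries, so that a low siNC value moves each of them the same way.

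The 5 genes that rose in siYAP/TAZ, in the fit without the correction, are among the members with an annotated transcript past the stem-loop. This depended on the fit, since *HIST1H1C*, which has no such transcript, passed limma's adjusted test in siYAP/TAZ after the correction (adjusted p = 0.0368), in a fit of only siNC and siYAP/TAZ (0.020) and with the replicate number as a block (0.00861), while *HIST3H2A* did not pass after the correction (0.0544). Of the 23 tested genes 22 were matched, and 7 of these have such a transcript: *HIST1H2AC*, *HIST1H2BD*, *HIST1H2BJ*, *HIST1H3E*, *HIST1H3H*, *HIST2H2BE* and *HIST3H2A*. The longest transcripts run 14432 bases past it for *HIST1H2AC*, 12747 for *HIST1H2BD*, 22592 for *HIST3H2A*, 1862 for *HIST1H3E* and 1729 for *HIST2H2BE*, with introns counted. The 7 genes had a median log2 fold change of 1.06 in siYAP/TAZ and a range of 0.15 to 2.42. As 2 of them, *HIST1H3E* and *HIST2H2BE*, passed the filter only through siYAP/TAZ, nothing is read from their count against that of all tested genes (6.15% higher). Of the 15 without such a transcript 0 rose in siYAP/TAZ by limma in the uncorrected fit, where 2 were higher at an unadjusted p under 0.05 (*HIST1H1C* and *HIST1H4B*), with a median of 0.32 and a range of -0.50 to 1.05. In siHHEX 2 of the 7 and 2 of the 15 rose, where 16% of all tested genes did, with medians of 0.42 and 0.49. The division was made with these results known, and the difference between the sets was not tested.

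The sums over all matched members, tested or not, are largely carried by the genes already named. The 16 genes with a transcript past the stem-loop summed to 12.2 and 11.8 FPKM in siNC, 26.6, 29.2 and 34.3 in siHHEX, 29.7 and 53.7 in siYAP/TAZ and 11.1 in siTEAD1/2/3/4. The 50 without one summed to 37.4 and 37.1, then 63.8, 76.0 and 99.9, then 65.3 and 67.5, and 44.1. Both sets were above siNC in all 5 siHHEX and siYAP/TAZ libraries. The ratios to siNC were 2.50 in siHHEX and 3.47 in siYAP/TAZ for the former, and 2.14 and 1.78 for the latter. The 5 genes that rose in siYAP/TAZ made up 25.4 and 48.1 FPKM of the former sum in that group. The other 11 genes summed to 2.31 and 2.15 FPKM in siNC and 4.29 and 5.63 in siYAP/TAZ, a ratio of 2.23. FPKM divides by the length in the annotation the authors used, which the sources used here do not name, so that a fragment past the stem-loop counts for a member only if that annotation holds the longer transcript.

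Many members are near copies, and fragments that fit several of them cannot be assigned to 1 gene. Of the 66 matched genes 34 share no 50-base word of their canonical transcript with another member, and 11 share more than 60% of theirs. The latter are *HIST1H2AI* with *HIST1H2AJ*, *HIST1H4J* with *HIST1H4K*, *HIST2H2AA3* with *HIST2H2AA4*, *HIST2H3A* with *HIST2H3C*, *HIST2H4A* with *HIST2H4B*, and *HIST2H3D*, and their values are uncertain. The closest member to *HIST2H3D* is *HIST2H3PS2*, with 46.2% of its words. Of the genes that rose, *HIST1H1C*, *HIST3H2A*, *HIST1H3E* and *HIST1H4D* share 0% of their words, *HIST1H2AC* 1.5%, *HIST2H2BE* 7.1% and *HIST1H2BD* 7.8%. *HIST1H2AJ*, the lowest in siTEAD1/2/3/4, shares 66.3% with *HIST1H2AI*, which was at 0.36 and 0.179 FPKM in siNC and 0.522 in siTEAD1/2/3/4. The library labels do not state strand, and whether counting used strand is not given in the sources used here.

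Among the 66 matched genes, 10 pairs within 1 kb are transcribed away from each other, from starts 194 to 979 bases apart, most of them an H2A and an H2B gene. In some pairs the mean levels over the 8 libraries were far apart, and in others close. *HIST1H2BK* at a mean of 20.2 FPKM starts 251 bases from *HIST1H2AH*, at 0.649, and *HIST3H2A* at 12.6 starts 230 bases from *HIST3H2BB*, at 0.338. *HIST1H2BL* at 0.485 FPKM and *HIST1H2AI* at 0.417 start 244 bases apart. *HIST2H2BE* and *HIST2H2AC* start 236 bases apart, and *HIST2H2BE* rose in siYAP/TAZ while *HIST2H2AC* was 0.32 above siNC on the log2 scale (adjusted p = 0.624 from limma).

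Promoters were read from RefSeq (GRCh38.p14) for 61 members, as the 250 bases before and 50 after the first start listed for each gene, and searched on both strands. The octamer ATTTGCAT, the site known for POU factors in H2B promoters, was in 21 of 61 (34.4%), where 1.8% of all 27305 promoters hold it. It was in 11 of 16 H2A and 9 of 13 H2B promoters and in 0 of the 6 H1 and 13 H4 promoters. The 1 of 13 H3 windows that holds it, listed for *HIST1H3D*, is that of the start of *HIST1H2AD*, upstream of the *HIST1H3D* span in GENCODE, and holds the same site. A pair that faces away from each other can hold 1 site for both, as the octamer between *HIST2H2BE* and *HIST2H2AC* at chr1:149886713-149886736. Its sequence on the strand of *HIST2H2BE*, and that of *HIST1H2BK* at chr6:27146889-27146912 on the minus strand, are shown with the octamer in capitals because one gene rose in siYAP/TAZ and the other is the most abundant H2B gene.
HIST2H2BE octamer: gagccctaATTTGCATaaggtggt
HIST1H2BK octamer: ttcaccttATTTGCATgagaggtc

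The octamer starts 46 bases before the transcription start in both. Among the genes that rose in siYAP/TAZ, *HIST1H2AC* and *HIST2H2BE* hold the octamer in this window, while *HIST1H2BD* does not. *HIST1H3E* does not hold it either, but its window is that of the start of its longer transcript, and *HIST3H2A* is not among the 61. The TATA-box letters TATAAA were in 41 of 61 (67.2%, where 12% of all promoters hold them) and CCAAT in 51 of 61 (83.6%, where 35.7% do). Every H1, H2A, H2B and H3 window held CCAAT and 3 of 13 H4 windows did. A match is a description of letters and not a bound site.

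The replacement histones showed how other histone genes moved. All 12 were tested, and in siHHEX 5 rose and 1 fell, where 16% and 16.9% of all tested genes did. *H2AFJ*, an H2A variant, rose by 0.90 (adjusted p = 0.0126), *H1F0*, the linker histone H1.0 of resting cells, by 0.62 (0.0141), *H2AFY2*, a macroH2A, by 0.56 (0.00946), *H1FX* by 0.54 (0.0175) and *H2AFX*, the variant phosphorylated at DNA breaks, by 0.34 (0.0444), all from limma. *H2AFZ*, which encodes H2A.Z, fell by 0.28 (adjusted p = 0.0322 from limma). Corrected for GC content and length, *H2AFZ* alone passed (-0.29, adjusted p = 0.0477 from limma), and 3 of the 12 were higher and 2 lower at an unadjusted p under 0.05.

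In siYAP/TAZ 4 of the 12 rose and 0 fell by limma, where 6.15% and 2.13% of all tested genes did, with 4 higher and 0 lower at an unadjusted p under 0.05. *H1F0* was at 132 and 134 FPKM in siNC, 193, 207 and 214 in siHHEX, 322 and 226 in siYAP/TAZ and 231 in siTEAD1/2/3/4, and every knockdown library was above siNC. It rose by 1.02 in siYAP/TAZ (adjusted p = 0.00996), *H2AFJ* by 0.92 (0.0366), *H2AFY2* by 0.48 (0.0458) and *H3F3A*, which encodes H3.3, by 0.45 (0.0435), all from limma. The same 4 genes passed after the correction, with *H1F0* at 1.06 (adjusted p = 0.00705 from limma). In siTEAD1/2/3/4 3 of the 12 were past 0.5 upwards, *H1F0* at 0.80, *H2AFJ* at 0.64 and *H2AFY2* at 0.59, where 7.08% of all tested genes were. The sum of the 12 genes was 1780 ± 58.4 FPKM in siHHEX (SD, n = 3) and 1900 ± 33.6 in siYAP/TAZ (SD, n = 2), the latter 1.07 times that of siNC.

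**Figure D5:**
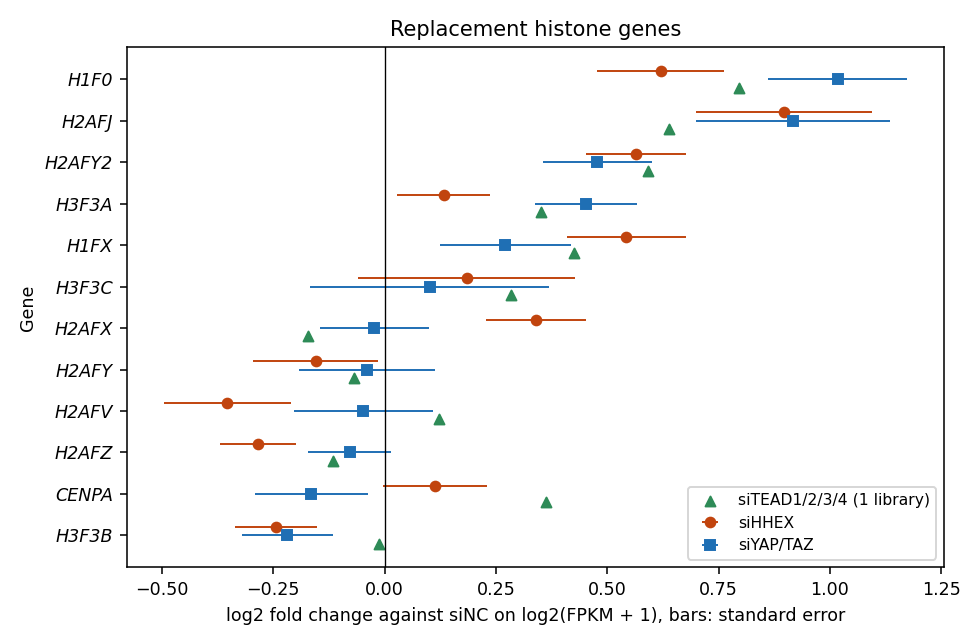
Log2 fold change against siNC on log2(FPKM + 1) (horizontal axis) of the 12 replacement histone genes (vertical axis) in siHHEX and siYAP/TAZ, with bars for the standard error from limma, and in the 1 siTEAD1/2/3/4 library. *H1F0*, *H2AFJ* and *H2AFY2* lie at 0.48 or more in all 3 groups and *H2AFZ* left of 0.

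Factors that make and process histone mRNA were read from a list of 16, of which 15 were in the files and tested. In siHHEX 3 of the 15 rose and 4 fell, where 16% and 16.9% of all tested genes did. At an unadjusted p under 0.05, 3 were higher and 9 lower, with no share of all tested genes counted at that threshold. The median of the list was -0.34, against -0.01 for all tested genes. *LSM10*, a subunit of the U7 particle that cuts histone mRNA, rose by 0.65 (adjusted p = 0.0151), the scaffold gene *SYMPK* by 0.41 (0.0293) and *HINFP*, a transcription factor of H4 genes, by 0.40 (0.0468), all from limma. *CCNE2*, a cyclin E, fell by 1.08 (adjusted p = 0.00911), *ERI1*, an exonuclease that trims histone mRNA, by 0.58 (0.0313), *CPSF2*, of the cleavage complex, by 0.58 (0.0187) and *SLBP* by 0.57 (0.0261), all from limma. *SLBP* was at 105 and 96.1 FPKM in siNC, 65.1, 83.8 and 55.4 in siHHEX, 79.2 and 75.7 in siYAP/TAZ and 85.2 in siTEAD1/2/3/4, and both siNC libraries were above all others. With GC content and length corrected for, 0 of the 15 passed in siHHEX by limma, with 1 higher and 3 lower at an unadjusted p under 0.05. *SLBP* was then at -0.57 (adjusted p = 0.0684), as before the correction, while *LSM10* was at 0.16 and *CPSF2* at -0.15. In siYAP/TAZ 0 of the 15 rose and 1 fell by limma, against 6.15% and 2.13% of all tested genes, *CSTF2*, by 0.46 (adjusted p = 0.0482), which was the only one of the 15 with an unadjusted p under 0.05.

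Of 21 histone chaperones, which carry histones to and from DNA, 2 rose and 3 fell in siHHEX, no larger shares than the 16% and 16.9% of all tested genes. *CABIN1* rose by 0.62 (adjusted p = 0.00820) and *ASF1B* by 0.37 (0.0473), while *ANP32E* fell by 1.05 (0.0126), *HAT1* by 0.55 (0.0399) and *HJURP* by 0.46 (0.0211), all from limma. After the correction none of these 5 passed, and *RBBP4* did (0.46, adjusted p = 0.0367 from limma). In siYAP/TAZ, where 6.15% of all tested genes rose and 2.13% fell, 1 of the 21 rose, *ATRX*, by 0.70 (adjusted p = 0.0365 from limma), and 0 fell, with 5 higher and 2 lower at an unadjusted p under 0.05.

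The S phase list held 19 genes of DNA replication that are expressed at the time of histone synthesis. In siHHEX, where 16% of all tested genes rose and 16.9% fell, 1 of them rose, *E2F1*, by 0.84 (adjusted p = 0.00888 from limma), and 3 fell, *CCNA2* by 0.73 (0.00645), *MCM6* by 0.55 (0.0406) and *CDC6* by 0.44 (0.0324). In the corrected fit 0 of the 19 rose and 1 fell by limma, *CCNA2*, with 2 higher and 1 lower at an unadjusted p under 0.05, and *E2F1* was at 0.49 (adjusted p = 0.0875), *MCM6* at -0.26 (0.297) and *CDC6* at -0.20 (0.27). In the uncorrected fit the median of the 19 was 0.04 in siHHEX and -0.16 in siYAP/TAZ, against 0.45 and 0.61 for the 23 histone genes. With GC content and length corrected for, 22 of these had medians of -0.04 and 0.52. No corrected median of the 19 is set beside them. Of the 23 histone genes 16 did not reach 1 FPKM in both siNC libraries, which can raise their medians, while all 19 S phase genes reached it. With no filter the histone medians were 0.19 in siHHEX and 0.13 in siYAP/TAZ over 60 genes, most of them near the floor. The difference between the lists was not tested. In siYAP/TAZ 0 of the 19 rose and 0 fell by limma, against 6.15% and 2.13% of all tested genes, with 0 higher and 3 lower at an unadjusted p under 0.05. *CCNA2*, which encodes cyclin A2, was at 67.1 and 66.7 FPKM in siNC, 38.4, 45.5 and 36.1 in siHHEX, 49.0 and 47.4 in siYAP/TAZ and 56.9 in siTEAD1/2/3/4. Both siNC libraries were above all others, and after the correction *CCNA2* fell by 0.44 in siHHEX (adjusted p = 0.0381) and in siYAP/TAZ (0.033), both from limma. The part of the share of cells in S phase in the histone levels was not tested.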

How the data were processed

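Total RNA from 8 HCT-116 libraries was sequenced on an Illumina HiSeq instrument. The deposited values are FPKM, made by the authors with 1 table for each library. The submitters' processing notes name Trimmomatic 0.36, HISAT2 2.0.5, Cufflinks 2.2.1 and HTSeq 0.9.1, and the study names DESeq. The genome build and annotation of the RNA-seq are not given in the sources used here. Groups came from the sample labels. The siHHEX and siYAP/TAZ libraries had different siRNAs. The reporting summary of the study speaks of biological replicates for its cell assays in general. It does not say whether the siNC libraries were separate cultures, so that their spread may be technical.

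The 10677 genes that reached 1 FPKM in 2 or more libraries entered limma (version 3.58.1, R version 4.3.3). A model of 4 groups over 8 libraries was fitted to log2(FPKM + 1), with a variance trend and Benjamini-Hochberg adjustment. For the correction, the deviation of each library from the mean over libraries (log2) was fitted with natural splines (4 degrees of freedom) on GC content and log length, for 10617 genes (99.4%), and the fit was taken off. Stem-loops, shared words and coordinates came from GENCODE 44 (GRCh38), promoters from RefSeq. The scripts were tested on simulated data. Other steps used Python 3.11.15 and pandas 2.3.3.

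The genes named are the 10 of highest mean level, every histone gene that passed a test, the 3 largest and 3 smallest changes in siTEAD1/2/3/4, up to 6 genes a list that passed, and the siRNA targets. Others belong to complete sets or were chosen after their values were seen. The members and lists were chosen with earlier results of these data known. Alternatives changed the pseudocount, filter, groups in the fit, scaling, variance trend, call rule and libraries.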

Additional observations from a re-analysis of the deposited data

How the results depend on the processing

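Counts of histone genes that passed depended on the settings. In none of them was a histone gene called lower in siHHEX or siYAP/TAZ than in siNC. Of the 4 siHHEX increases, 7 were counted with a pseudocount of 0.1 (16.4% of all tested genes were then higher), 2 of 60 with no filter (6.37% of all), and 0 when GC content and length were corrected for, without and with the replicate block (3.15% and 0.537% of all). Leaving out 1 siHHEX library gave 5 to 7, where 10.7% to 20.4% of all were higher. The loss of these calls with 1 siNC library is described above. The 5 siYAP/TAZ increases became 1 of 60 with no filter (1.47% of all) and 3 of 11 with a mean of at least 1 FPKM (6.03% of all). Without 1 siHHEX library they were 4 to 6 (3.9% to 8.88% of all). The fits with 1 siNC or 1 siYAP/TAZ library are described above. Between siHHEX and siYAP/TAZ, the 1 gene higher in siHHEX became 0 with the pseudocount of 0.1, with no filter, with the mean filter, with the study's criterion and in the corrected fit with or without the block (0.234% to 13.9% of all). Without 1 siHHEX library 0 to 2 were higher (10.9% to 16.4% of all). The 5 lower became 3 of 60 with no filter (13.7% of all) and 3 of 11 with the mean filter (25.9%). They became 3 of 23 with the study's criterion (1.28%) and 3 of 22 with the correction and block together (2.07%). Without 1 siHHEX library they were 4 to 5 (16.9% to 31.9%). The fits with 1 siYAP/TAZ library are described above. In siTEAD1/2/3/4 the 2 past 0.5 downwards became 5 with the pseudocount of 0.1, and 3 with either siNC library alone as the control. The share of all tested genes past 0.5 was not counted in these settings, so that nothing is read from these counts.

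The deviations of same-numbered libraries from their group means had correlations of -0.0704 to 0.0215. In a group of 2 libraries these deviations mirror each other, so that the correlations are not independent. They cannot decide whether the numbers pair the samples. Blocking on the replicate number, without siTEAD1/2/3/4, gave 6 of 23 higher in siHHEX and 7 in siYAP/TAZ, where 9.58% and 7.3% of all genes were. Between siHHEX and siYAP/TAZ 2 were higher and 5 lower (9.49% and 18% of all). Replicate number 3 occurs only in siHHEX 3, so that this library adds nothing to the blocked comparisons. Some of the 23 genes passed the filter only through siHHEX or only through siYAP/TAZ, and nothing is read from these shares against the background. Scaling each library to the same median moved the median of all genes in siYAP/TAZ from 0.08 to -0.02 and between siHHEX and siYAP/TAZ from -0.13 to 0.03. The share of calls over all genes that were higher then went from 48.7% to 60.1% in siHHEX, from 74.3% to 49.9% in siYAP/TAZ and from 34.2% to 62.3% between them, while 4, 4 and 1 histone genes were higher, where 20.6%, 3.33% and 23.5% of all genes were. The ratio of summed levels without *HIST1H1C*, and as a share of each library, stayed within the spread of the libraries. With FPKM alone, values under about 1 FPKM rest on few fragments of unknown number.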
